A study of Mus musculus with 11 samples.

Results

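The caveolins and cavins are the structural proteins of caveolae, and their 7 genes (Cav1, Cav2, Cav3, Cavin1, Cavin2, Cavin3 and Cavin4) were followed across 11 regions of the naive mouse mammary gland. They were taken by target name from the 19965 endogenous probes of the table. Each of the 7 has 1 probe, and all 7 were among the 19935 probes that passed the filter on low counts. The assay was GeoMx digital spatial profiling, which binds probes with a barcode to the RNA of a section, frees the barcodes of a chosen area with light and counts them by sequencing. The regions lay in glands of periostin lineage tracing mice, 3 in all, fixed in paraformaldehyde and frozen. Only the area positive for ZsGreen, the reporter of the periostin lineage, was collected from a region. One group of 6 regions was chosen beside structures stained for podoplanin (Pdpn-adjacent, marking lymphatic vessels), and the other of 5 regions beside structures stained for smooth muscle actin (SMA-adjacent, marking ducts and blood vessels). No treatment is labelled in either group, and the allele that drives the reporter, the strain, the sex and the age are not given in the sources used here. Which mouse gave which region is not labelled, and as 3 mice gave 6 and 5 regions, some regions of a group share a mouse and every p-value over regions can be too small.

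Caveolae are flask-shaped pits of the plasma membrane. Caveolin-1 and caveolin-2 form their core in most cell types, and caveolin-3 takes the place of caveolin-1 in striated muscle. Cavin-1 coats the pit and is needed for it to form, cavin-2 and cavin-3 join the coat, and cavin-4 is largely confined to muscle. Adipocytes, endothelium and muscle are known for dense caveolae, which serve in lipid uptake, membrane buffering and signalling.

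The upstream sequences of Cav1, Cav2, Cavin1 and Cavin2 are shown because the median count of these 4 members over the regions was above 2 times background, and no other member's was. Each is the 150 bases before the first annotated start of the gene in RefSeq on GRCm38.p6, read 5′ to 3′ on the gene's strand: Cav1 at chr6:17306185-17306334 (plus strand), Cav2 at chr6:17281035-17281184 (plus strand), Cavin1 at chr11:100970618-100970767 (minus strand) and Cavin2 at chr1:51288976-51289125 (plus strand). Capitals mark GGGCGG (the letters of a GC box) and CCAAT, each searched on both strands.
Cav1: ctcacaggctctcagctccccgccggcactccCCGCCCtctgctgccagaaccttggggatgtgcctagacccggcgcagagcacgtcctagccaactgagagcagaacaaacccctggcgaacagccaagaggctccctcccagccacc
Cav2: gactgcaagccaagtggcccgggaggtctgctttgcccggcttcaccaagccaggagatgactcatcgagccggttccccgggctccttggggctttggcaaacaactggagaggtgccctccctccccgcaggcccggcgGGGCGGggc
Cavin1: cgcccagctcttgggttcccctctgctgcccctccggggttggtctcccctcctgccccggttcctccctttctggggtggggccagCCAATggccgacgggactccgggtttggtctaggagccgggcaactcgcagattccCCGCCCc
Cavin2: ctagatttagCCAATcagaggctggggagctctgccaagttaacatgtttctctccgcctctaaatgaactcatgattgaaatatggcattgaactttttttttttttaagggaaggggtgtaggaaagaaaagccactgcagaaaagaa
GGGCGG was found in the windows of Cav1, Cav2 and Cavin1, and in 28.6% of the 32851 windows of this length in the table. CCAAT was found in those of Cavin1 and Cavin2 and in 24.5% of all windows. GC content was 66.0% for Cav1, 68.7% for Cav2 and 70.0% for Cavin1, against 40.0% for Cavin2 and a median of 54.0% over all windows. TATAAA, held by 7.57% of windows, was in none of these 4 but in that of Cavin4. The table lists another start for Cav1 and for Cavin1, and 6 of the 7 members had a window. Such matches describe letters and not binding, and the counts measure no promoter. Cav1 and Cav2 are also neighbours on chromosome 6, where the annotated start of Cav1 lies 17205 bases beyond the end of Cav2.

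The depth behind the values differed widely. Total counts ran from 760761 to 3086323 in SMA-adjacent and from 22757 to 2271664 in Pdpn-adjacent regions, of which regions 2, 3 and 11 held under 100000. In these 3 libraries 1 count was worth 37.5, 12.3 and 34.3 CPM (counts relative to a library size adjusted by TMM), and the lowest value in the table is 1, so a listed count of 1 may be no count at all. The 210 negative-control probes set the background, whose geometric mean stood at 26.0 to 39.4 CPM. Values over background are counts divided by that mean. Markers of several cell types were present in the segments, and whether they came from the labelled cells or from neighbours was not tested. A list of 10 adipocyte markers averaged 12.7 to 36.9 times background in SMA-adjacent and 1.05 to 29.8 times in Pdpn-adjacent regions, and 9 measured fibroblast markers 5.86 to 17.7 and 0.952 to 9.58 times. Lymphatic endothelial markers reached at most 1.71 and 1.73 times, near background in both groups, although podoplanin staining of lymphatic vessels chose the Pdpn-adjacent regions.

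Of 19935 probes tested with edgeR's quasi-likelihood test, 2 (0.01%) passed an adjusted p of 0.05, both higher in Pdpn-adjacent regions, and none was a caveolin or cavin. At an unadjusted p under 0.05, 1 of the 7 members (Cavin3) was lower and 0 higher, where 3.19% of all probes were lower and 2.84% higher, 6.03% together. An exact permutation test of mean CPM gave p under 0.05 for 2 members lower (Cav1 and Cavin2; 4.17% of all probes) and 2 higher (Cav3 and Cavin4; 3.68%), and none of all probes passed after adjustment. The median log2 fold change, Pdpn-adjacent minus SMA-adjacent, was -0.55 over the members and 0.01 over all probes tested. The members' median rested in part on single libraries: it was -0.19 without Pdpn-adjacent region 4 and ran to -0.78 without region 8. It was -0.20 when each region's share above background entered as a covariate, -0.29 without regions 2, 3 and 11 and -0.060 without regions 4 and 8. It was below 0 for 5 of 7 members and for 48.8% of all probes. Among the 2986 probes with a median over regions above 2 times background, a level at which 4 of the members stood, 67.6% were below 0 and the median was -0.09. No member had all Pdpn-adjacent regions below all SMA-adjacent ones, as 0.391% of all probes did, and none had all of them above, as 0.446% did. The levels fell into 3 sets. Cav1 and Cavin1 were above every negative-control probe in all 8 libraries over 100000 counts. Cav2 and Cavin2 were lower, and Cav3, Cavin3 and Cavin4 stood near or below background. Taking the negative probes' mean plus 2 SD (log2) as a floor, Cav1 passed it in 4 of 6 Pdpn-adjacent and 5 of 5 SMA-adjacent regions, and Cavin1 in 3 and 5. Cav2 passed in 3 and 4, missing it in SMA-adjacent region 5. Cavin2 passed in 1 (region 8) and 4, and missed it in the deeper regions 4, 5 and 7, where 9, 14 and 8 of the 210 negative-control probes were as high or higher.

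**Figure D1:**
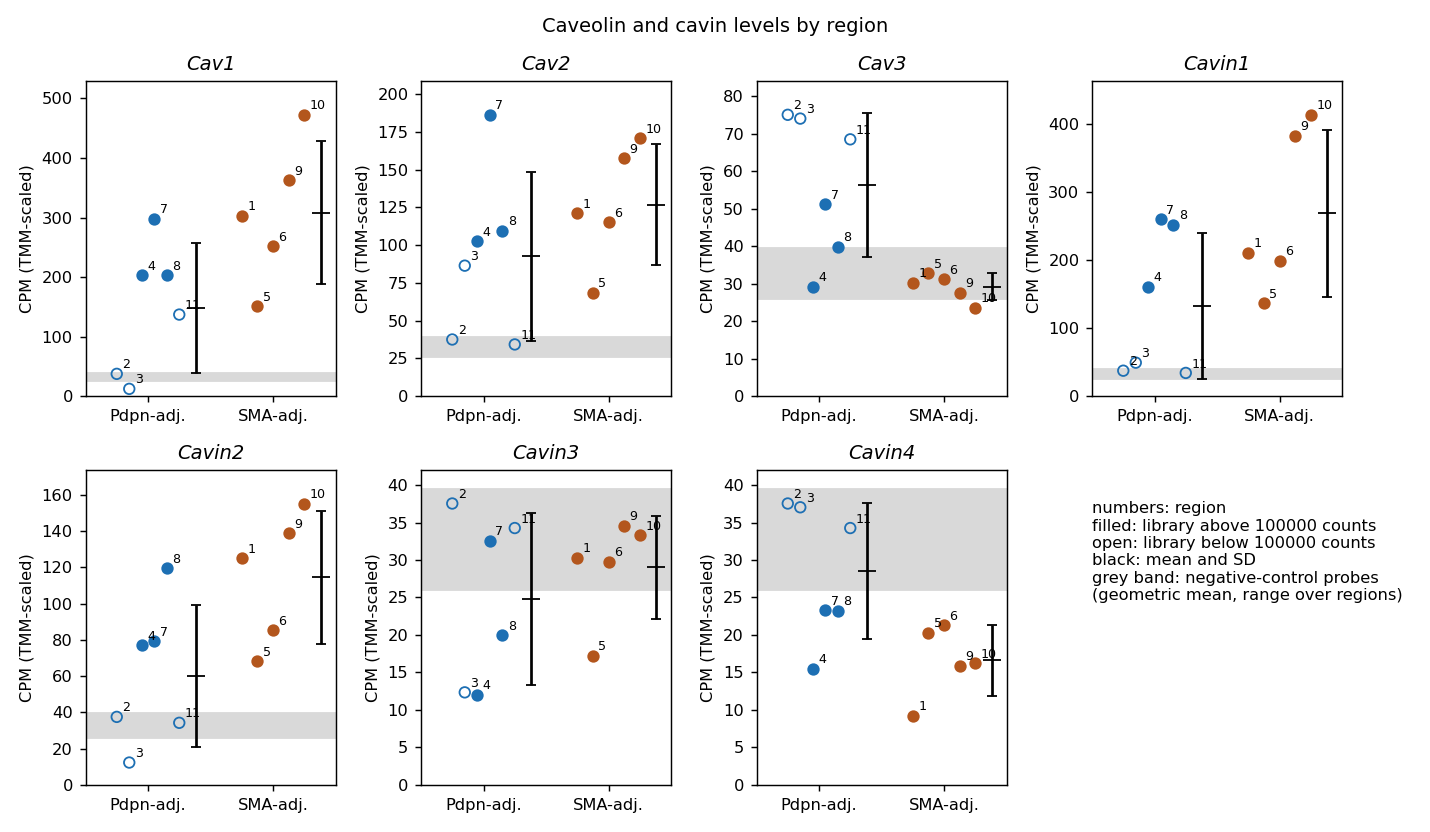
Level of each member in CPM (vertical axis, from 0, a separate scale for each gene) by group, one point a region with its number. Filled points are libraries above 100000 counts, open points those below, and black bars the mean and SD. The grey band is the geometric mean of the negative-control probes, 26.0 to 39.4 CPM over the regions. It does not show the spread of single probes: in region 5, 14 of the 210 were as high as Cav2 or higher. Cav1, Cav2, Cavin1 and Cavin2 lie above the band in all 8 deeper libraries, and the lowest Pdpn-adjacent values of these 4 are open points.

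Cav1 encodes the main structural protein of caveolae outside striated muscle. It gave the most counts of the family in 6 of the 8 libraries above 100000, and Cavin1 did so in regions 8 and 9. In SMA-adjacent regions 1, 5, 6, 9 and 10 it stood at 303, 152, 252, 363 and 472 CPM. In Pdpn-adjacent regions 2, 3, 4, 7, 8 and 11 it stood at 37.5, 12.3, 203, 298, 203 and 137 CPM. Region 10 was highest, and regions 2 and 3, each with a raw count of 1, were lowest. Regions 4, 7 and 8 lay inside the SMA-adjacent range and the other 3 below it, so the groups overlapped. The means were 148 ± 109 CPM (SD, n = 6) and 308 ± 120 CPM (SD, n = 5). The fitted log2 fold change was -0.84 ± 0.45 SE, with a 95% interval of -1.71 to 0.04 and an adjusted p of 0.880 in edgeR. An exact two-sided permutation test over all 462 groupings gave p = 0.0476, and an adjusted p of 0.629 over all probes. Without regions 2, 3 and 11 the log2 fold change was -0.41 and the exact permutation p was 0.339, with means of 234 ± 55.1 CPM (SD, n = 3) and 308 ± 120 CPM (SD, n = 5). Its mean CPM in SMA-adjacent regions ranked 114 of 19965 probes, and that of Cavin1 146. The probe's target lies in the gene at chr6:17339326-17339375 on GRCm38.p6.

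Cav2, the partner that assembles with caveolin-1, had the smallest fitted difference of Cav1, Cav2, Cavin1 and Cavin2. It stood at 121, 68.5, 115, 158 and 171 CPM in SMA-adjacent regions 1, 5, 6, 9 and 10. It stood at 37.5, 86.4, 102, 186, 109.6 and 34.3 CPM in Pdpn-adjacent regions 2, 3, 4, 7, 8 and 11. The highest value of all came from Pdpn-adjacent region 7, and regions 2 and 11, at a raw count of 1, were the only ones below the SMA-adjacent range. The means were 92.8 ± 55.9 CPM (SD, n = 6) and 127 ± 40.1 CPM (SD, n = 5). The fitted difference was -0.17 ± 0.29 SE on the log2 scale, with a 95% interval of -0.73 to 0.39, an adjusted p of 1.00 in edgeR and an exact permutation p of 0.279. Without regions 2, 3 and 11 the fitted value was 0.0045, and the means of the deeper libraries were 133 ± 46.5 CPM (SD, n = 3) and 127 ± 40.1 CPM (SD, n = 5). Its probe lies at chr6:17281426-17281465.

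Cavin1, the coat protein without which caveolae do not form, had levels near those of Cav1. SMA-adjacent regions 1, 5, 6, 9 and 10 held 211, 136, 199, 384 and 414 CPM. Pdpn-adjacent regions 2, 3, 4, 7, 8 and 11 held 37.5, 49.4, 161, 261, 252.5 and 34.3 CPM. Regions 9 and 10 stood above all others, with region 7 next, and regions 2, 3 and 11, with raw counts of 1, 4 and 1, below all others. The means were 133 ± 107 CPM (SD, n = 6) and 269 ± 122 CPM (SD, n = 5). On the log2 scale the edgeR difference was -0.72 ± 0.42 SE, with an adjusted p of 0.924 and an exact permutation p of 0.0887. In the deeper libraries the means were 225 ± 55.2 CPM (SD, n = 3) and 269 ± 122 CPM (SD, n = 5), and the log2 fold change was -0.29. The target of the probe is at chr11:100970423-100970463.

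Cavin2, a coat protein that bends membrane, stood at 125, 68.2, 85.4, 139 and 155 CPM in SMA-adjacent regions 1, 5, 6, 9 and 10. In Pdpn-adjacent regions 2, 3, 4, 7, 8 and 11 it stood at 37.5, 12.3, 77.0, 79.2, 119.6 and 34.3 CPM. Regions 2, 3 and 11, each at a raw count of 1, were below every SMA-adjacent region, and regions 4, 7 and 8 were within their range. The means were 60.0 ± 39.1 CPM (SD, n = 6) and 115 ± 36.6 CPM (SD, n = 5). The edgeR estimate was -0.55 ± 0.28 SE (log2), with an adjusted p of 0.860, and the exact permutation p was 0.0455, or 0.627 adjusted over all probes. Among the deeper libraries the means were 91.9 ± 24.0 CPM (SD, n = 3) and 115 ± 36.6 CPM (SD, n = 5), the fitted log2 value was -0.35 and the exact permutation p was 0.339. Its probe lies at chr1:51289567-51289602.

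Cavin3, which joins the coat through cavin-1, stayed at or below 1.16 times background in every region. It stood at 30.3, 17.2, 29.8, 34.6 and 33.3 CPM in SMA-adjacent and at 37.5, 12.3, 12.0, 32.6, 19.9 and 34.3 CPM in Pdpn-adjacent regions, 0.504 to 1.16 and 0.365 to 1.02 times background. In region 4, 208 of the 210 negative-control probes were as high as its 28 counts or higher. The log2 fold change of -0.88 ± 0.27 SE was the largest in size of the family but missed the threshold (edgeR unadjusted p = 0.00324, adjusted p = 0.476), and the means were 24.8 ± 11.4 CPM (SD, n = 6) and 29.0 ± 6.90 CPM (SD, n = 5; exact permutation p = 0.487). It rested on single libraries. Without Pdpn-adjacent region 4 it was -0.19 (edgeR adjusted p = 0.976), and without SMA-adjacent region 5 it was -1.10 and passed (edgeR adjusted p = 0.0190). The probe lies at chr7:105481182-105481216.

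The muscle members stood at or near the level of the negative-control probes. Cav3, the muscle caveolin, stood at 23.7 to 32.9 CPM in SMA-adjacent regions, 0.812 to 1.02 times background, and 106 to 158 of the 210 negative-control probes were as high there or higher. In Pdpn-adjacent regions 2, 3, 4, 7, 8 and 11 it stood at 75.1, 74.1, 29.3, 51.2, 39.9 and 68.5 CPM, from raw counts of 2, 6, 68, 11, 12 and 2. Thus 5 of the 6 lay above all SMA-adjacent regions, as for 3.68% of all probes (at least 5 of 6 above), and 15 to 51 negative-control probes in each of those 5 were at or above it. In regions 2 and 11 even a count of 1, the lowest in the table, is worth 37.5 and 34.3 CPM. Both would thus lie above the SMA-adjacent maximum of 32.9 CPM at any count. The means were 56.3 ± 19.2 CPM (SD, n = 6) and 29.2 ± 3.61 CPM (SD, n = 5). The exact permutation p was 0.0216, or 0.623 adjusted over all probes. The edgeR estimate was 0.27 ± 0.18 SE (log2; unadjusted p = 0.250, adjusted p = 0.983), and this p is larger than the SE implies. Without regions 2, 3 and 11 the log2 fold change was 0.16 (exact permutation p = 0.0714). Fast skeletal muscle markers averaged 85.4 times background in region 3 and 40.2 times in region 7, against 1.02 to 11.6 times elsewhere. Cav3 was 2.25 times background in region 3 and 1.60 times in region 7. It was also 1.90 and 1.78 times in regions 2 and 11, where these markers averaged 5.33 and 1.69 times. In region 5, where they averaged 11.6 times, Cav3 was 0.963 times. Over the 8 deeper libraries its r with this list was 0.58, and -0.11 without regions 4 and 7. It was higher with the basal epithelial (0.89) and Schwann cell (0.75) lists, but these fell to 0.36 and 0.0029 without regions 7 and 8. The part of these markers in the Cav3 level was not tested. Without regions 3 and 7 the log2 fold change was 0.12, without region 4 it was 0.79, without regions 4 and 8 it was 1.02, and with limma-voom it was 0.81. Cavin4, the muscle cavin, was below background in all SMA-adjacent regions, at 9.23 to 21.3 CPM, and at 15.5 to 37.5 CPM in Pdpn-adjacent regions, where its raw counts were 1, 3, 36, 5, 7 and 1. Here 5 of the 6 Pdpn-adjacent regions again lay above all SMA-adjacent ones (at least 5 did so for 3.68% of all probes). Regions 2 and 11 stood at the lowest possible count of 1, worth 37.5 and 34.3 CPM, so they could not lie within the SMA-adjacent range. The means were 28.5 ± 9.07 CPM (SD, n = 6) and 16.6 ± 4.77 CPM (SD, n = 5). The exact permutation p was 0.0368 (0.627 adjusted over all probes, 0.286 without regions 2, 3 and 11). The edgeR estimate was 0.03 ± 0.24 SE (log2; adjusted p = 1.00), far from the 0.78 of the means. The probes lie at chr6:112472361-112472398 (Cav3) and chr4:48663663-48663700 (Cavin4).

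**Figure D2:**
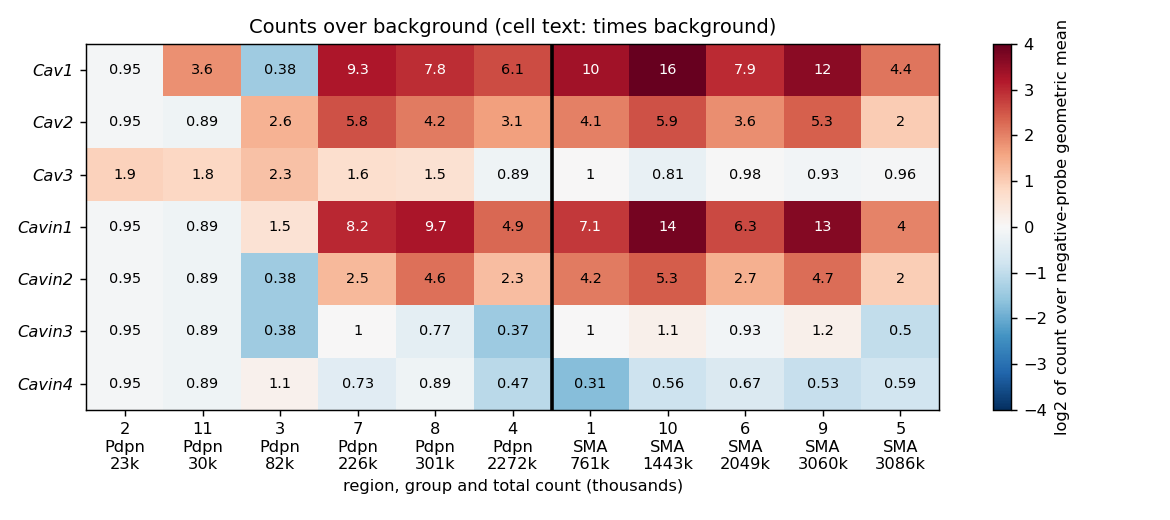
Count of each member (rows) over the geometric mean of the negative-control probes in each region (columns, ordered by group and total count), with colour on a log2 scale and the ratio in each cell. Cav1 reaches 16.2 and Cavin1 14.2 times background in SMA-adjacent region 10, and Cav3, Cavin3 and Cavin4 stay within 0.310 to 2.25 times everywhere.

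In SMA-adjacent regions Cav1, Cavin1, Cavin2 and Cav2 stood above the other 3 with no overlap. In SMA-adjacent regions the median was 10.2 times background for Cav1, 7.07 for Cavin1, 4.20 for Cavin2, 4.07 for Cav2, 1.02 for Cavin3, 0.963 for Cav3 and 0.558 for Cavin4. Neighbours in this order overlapped in range except between Cav2, at 2.01 to 5.86 times, and Cavin3, at 0.504 to 1.16 times, and between Cav3, at 0.812 to 1.02 times, and Cavin4, at 0.310 to 0.669 times. Each gene has a probe of its own, so part of such a difference between genes can be the probe.

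Cav1, Cav2, Cavin1 and Cavin2 varied together among the 8 libraries above 100000 counts. Pearson's r of log2 CPM was 0.89 between Cav1 and Cavin1, 0.87 between Cav1 and Cav2, 0.86 between Cavin1 and Cavin2, and lowest at 0.61 between Cav2 and Cavin2 (Spearman's rho 0.929, 0.905, 0.905 and 0.762). These 8 points share mice and a general scale, and in 3 of them Cavin2 was under the floor. The share of counts above background, 21.6% to 41.6% in these libraries, had an r of 0.70 with Cav1, 0.62 with Cav2, 0.87 with Cavin1 and 0.94 with Cavin2, against a median of 0.16 over 3499 probes above 2 times background. Other probes were closer to each member than the family was. Among 3498 candidates Cavin1 ranked 150 in likeness to Cav1, and Cav2 ranked 193. Most like Cav1 were Tpt1, Gnb1, Rbm3, Gsn and Ubb (r = 0.978 to 0.985), and most like Cav2 were Srebf1, Pgrmc1, Rps15, Ost4 and Fkbp8 (0.975 to 0.989). Most like Cavin1 were Actg1, Egln2, Rpl18, Rpl13 and Btf3 (0.977 to 0.990), and most like Cavin2 were Rpl22, Nos3, Rps4x, Rps20 and Gnai2 (0.976 to 0.993). With 8 points and this many candidates, values of this size describe these libraries only.

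Set beside 10 cell type marker lists in the same 8 libraries, Cav2 was closest to the adipocyte list and Cavin2 to the blood endothelial list. For Cav2 and adipocyte markers r was 0.93 (rho 0.81), and 0.83 without regions 5 and 7, the 2 farthest from the list's median. For Cavin2 and blood endothelial markers r was 0.98 (rho 0.98), and 0.98 without regions 4 and 5. Cavin2 was nearly as close to the fibroblast list, at 0.92 (rho 0.93), and 0.89 without regions 4 and 10. The crossed pairs were lower, at 0.59 for Cav2 with the blood endothelial and 0.42 for Cavin2 with the adipocyte list. Cav1 was about equally close to the adipocyte (0.84) and fibroblast (0.83) lists, and Cavin1 to the blood endothelial (0.83) and fibroblast (0.80) lists. Without the 2 regions farthest from each list's median, these became 0.83 and 0.72 for Cav1, and 0.64 and 0.61 for Cavin1. By the same check Cav1 had 0.79 with the smooth muscle, pericyte and myoepithelial list, and Cavin1 had 0.72 with the adipocyte list. The order of the lists for these 2 members thus changed with the regions used. These are descriptions over 8 regions that share mice and the scale above. In such segments fewer cells of a type and less RNA per cell cannot be told apart. Between the groups, 3.19% of all probes were lower and 2.84% higher in Pdpn-adjacent regions at an unadjusted edgeR p under 0.05. The adipocyte list had 0 of 10 genes past the threshold in either direction and a median log2 fold change of -0.37, and no gene at an unadjusted p under 0.05. The blood endothelial list had 0 of 10 past it, 3 lower at an unadjusted p under 0.05 and a median of -0.41. Blood endothelial markers averaged 1.77 to 3.93 times background in SMA-adjacent and 0.952 to 3.27 times in Pdpn-adjacent regions. Fibroblast markers had 0 of 9 past the threshold, 6 lower at an unadjusted p under 0.05 and a median of -0.72. Smooth muscle, pericyte and myoepithelial markers had 0 of 10, 8 lower at an unadjusted p under 0.05 and a median of -1.65, and they averaged 4.14 to 21.0 times background in SMA-adjacent and 1.14 to 4.22 times in Pdpn-adjacent regions. This list holds Acta2, which encodes the actin whose staining chose the SMA-adjacent regions. The direction of the list is therefore not independent of that choice. Other lists went the opposite way. Luminal epithelial markers had 1 of 10 past the threshold, higher in Pdpn-adjacent regions, 9 higher at an unadjusted p under 0.05 and a median of 0.78. They averaged 1.34 to 1.72 times background beside SMA and 1.07 to 3.05 times beside Pdpn. Of the Pdpn-adjacent regions, 4 and 8 stood at 2.78 and 3.05 times and the others at 1.07 to 1.76 times. Fast skeletal muscle markers had 0 of 10 past it, 8 higher at an unadjusted p under 0.05 and a median of 2.19. They averaged 85.4 and 40.2 times background in regions 3 and 7. The other Pdpn-adjacent regions stood at 1.02 to 5.33 times and the SMA-adjacent ones at 1.07 to 11.6 times. Schwann cell markers had 1 of 6 past it, also higher, 4 higher at an unadjusted p under 0.05 and a median of 0.42. Basal epithelial markers had 0 of 5, 1 higher and a median of 0.19, macrophage markers 0 of 6, 1 lower and -0.16, and lymphatic endothelial markers 0 of 7, none in either direction and -0.08. The part of these lists in the caveolin and cavin levels was not tested.

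**Figure D3:**
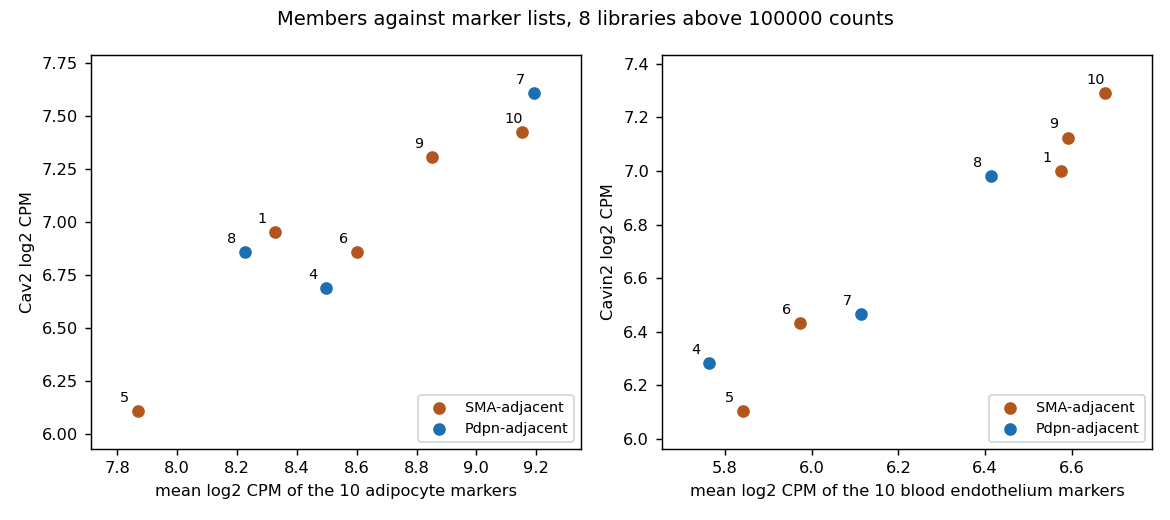
Log2 CPM of Cav2 against the mean log2 CPM of 10 adipocyte markers (left) and of Cavin2 against that of 10 blood endothelial markers (right), one point for each of the 8 libraries above 100000 counts, numbered by region and coloured by group. The points run along a line with r of 0.93 and 0.98, and the groups are mixed along it.

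Ratios within a region do not depend on library scaling, and 3 were tested. The log2 ratio of Cav2 to Cav1 was -1.32, -1.14, -1.13, -1.20 and -1.47 in SMA-adjacent regions 1, 5, 6, 9 and 10, and -0.98, -0.68 and -0.89 in Pdpn-adjacent regions 4, 7 and 8. Thus all 3 deeper Pdpn-adjacent regions held more Cav2 for each Cav1 count than any SMA-adjacent region. Regions 7 and 8 rest on counts of only 40 over 64 and 33 over 61. In region 8 the exact Poisson 95% interval was 75.5 to 154 CPM for Cav2 and 155 to 260 CPM for Cav1. Counting error did not enter the test of the ratios, and how often other pairs of probes separate in this way was not counted. The difference between the means was 0.40 (-0.85 ± 0.16, SD, n = 3, against -1.25 ± 0.14, SD, n = 5). The exact permutation p was 0.0179, the smallest that 56 groupings can give, and 0.0536 adjusted over 3 ratios. With background subtracted the difference was 0.51, with the same p-values. In regions 2, 3 and 11 the ratio was 0, 2.81 and -2 from counts of 1 to 7, and over all 11 regions the difference was 0.96 (exact permutation p = 0.227, adjusted p = 0.636). The log2 ratio of Cav1 to Cavin1 was 0.07 ± 0.34 (SD, n = 3) and 0.22 ± 0.22 (SD, n = 5) in the deeper libraries (exact permutation p = 0.464), and that of Cavin2 to Cavin1 was -1.29 ± 0.37 (SD, n = 3) and -1.17 ± 0.30 (SD, n = 5; exact permutation p = 0.643). Cavin3 to Cavin1 was not evaluated, since Cavin3 was at background. With regions sharing mice, these p-values can be too small.

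**Figure D4:**
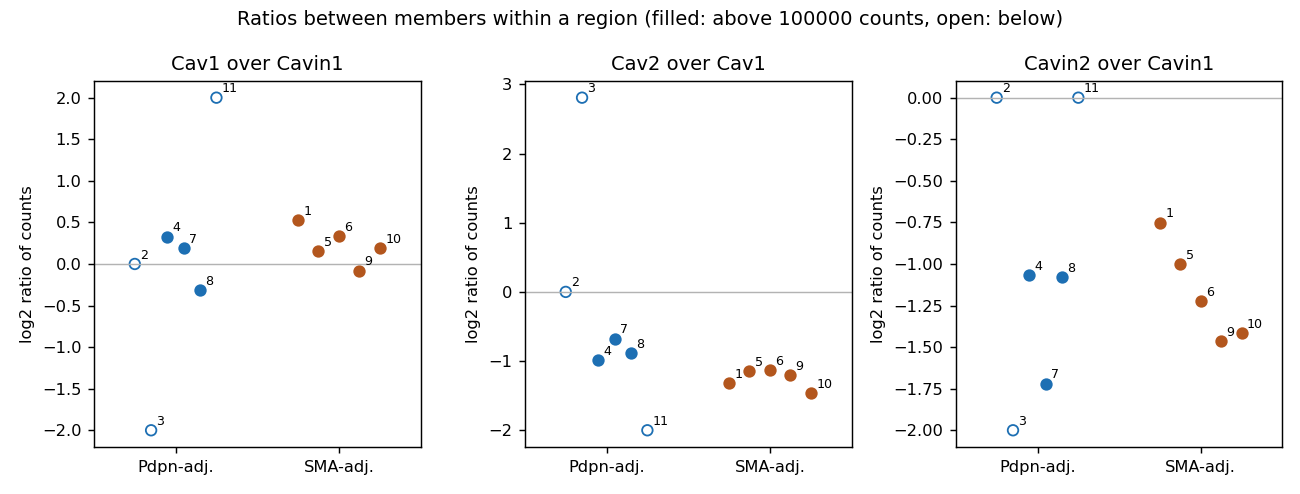
Log2 ratio of raw counts between pairs of members in each region (vertical axis), by group, with filled points for libraries above 100000 counts and open points for those below. In the middle panel the 3 filled Pdpn-adjacent points (-0.98 to -0.68) lie above the 5 SMA-adjacent ones (-1.47 to -1.13), and the open points scatter from -2 to 2.81.

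Because the background share differed between regions, the members were also expressed as a share of counts after subtraction of the mean negative-probe count, in the 8 deeper libraries. On this CPM scale Cav1 stood at 634 ± 205 (SD, n = 3) beside Pdpn and 759.7 ± 162 (SD, n = 5) beside SMA (exact permutation p = 0.411). Cavin1 stood at 580.4 ± 114 and 642 ± 189 (exact permutation p = 0.607), and Cavin2 at 171 ± 42.8 and 222 ± 62.9 (exact permutation p = 0.232). Cav2 was on the other side, at 309 ± 146 (SD, n = 3) beside Pdpn and 254 ± 63.1 (SD, n = 5) beside SMA, with an exact permutation p of 0.518. The differences were each smaller than the SD of at least one group.

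No other gene of the caveola lists passed the threshold over all probes. At an unadjusted edgeR p under 0.05, 3.19% of all probes were lower and 2.84% higher in Pdpn-adjacent regions. Of 12 partners at the neck, the coat and the link to actin, 0 passed in either direction, 1 was lower and 0 higher at an unadjusted p under 0.05, and the median log2 fold change was -0.22. That gene was Flna, filamin A, which ties caveolae to actin, with a mean of 70.3 ± 42.1 CPM (SD, n = 6) beside Pdpn and of 294 ± 198 CPM (SD, n = 5) beside SMA. Its log2 fold change was -1.85 ± 0.44 SE (edgeR adjusted p = 0.154), 5 of 6 Pdpn-adjacent regions lay below every SMA-adjacent one (at least 5 did so for 2.82% of all probes), and it passed with DESeq2 (adjusted p = 0.0172) and without SMA-adjacent region 5 (edgeR adjusted p = 0.0391). Ehd2, the ATPase of the caveola neck, stood at 139 ± 96.7 and 263 ± 101 CPM (-0.67 ± 0.41 SE in log2, edgeR adjusted p = 0.927). Dnm2, a GTPase that severs membrane necks, differed by -0.31 ± 0.18 SE in log2 (edgeR adjusted p = 0.925). Of 9 flotillins and other raft scaffolds, 0 passed, 1 was lower (Stom, stomatin, -0.54 ± 0.22 SE, edgeR adjusted p = 0.761) and 1 higher (Mal2, a protein of transcytosis, 0.44 ± 0.19 SE, edgeR adjusted p = 0.765) at an unadjusted p under 0.05, with a median of 0.03. Mal2 and Stoml3, a stomatin-like protein (0.27 ± 0.16 SE, edgeR adjusted p = 0.930), stood at 0.889 and 1.02 times background in the median region.

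Of 14 proteins that reside in or signal from caveolae, 0 passed and 5 were lower and 0 higher at an unadjusted p under 0.05, with a median log2 fold change of -0.27. At the same edgeR p, 3.19% of all probes were lower and 2.84% higher. Atp2b4, a calcium pump of the plasma membrane, averaged 59.7 ± 19.5 CPM (SD, n = 6) beside Pdpn and 97.1 ± 8.50 CPM (SD, n = 5) beside SMA. No region of the first group reached the second (-0.55 ± 0.19 SE in log2, edgeR adjusted p = 0.644), a separation that 0.391% of all probes had. Its lowest value beside Pdpn was 34.3 CPM, what 1 count is worth in region 11. Ptgis, prostacyclin synthase, had the same separation at 43.5 ± 11.0 and 71.3 ± 17.9 CPM (-0.56 ± 0.21 SE, edgeR adjusted p = 0.694). It passed the floor in 0 of 6 Pdpn-adjacent and 2 of 5 SMA-adjacent regions. Nos3, the endothelial nitric oxide synthase that caveolin-1 binds, stood at 43.5 ± 13.2 and 72.3 ± 25.2 CPM (-0.63 ± 0.26 SE, edgeR adjusted p = 0.761). Their medians beside Pdpn were 2.03, 1.33 and 1.18 times background.

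**Figure D5:**
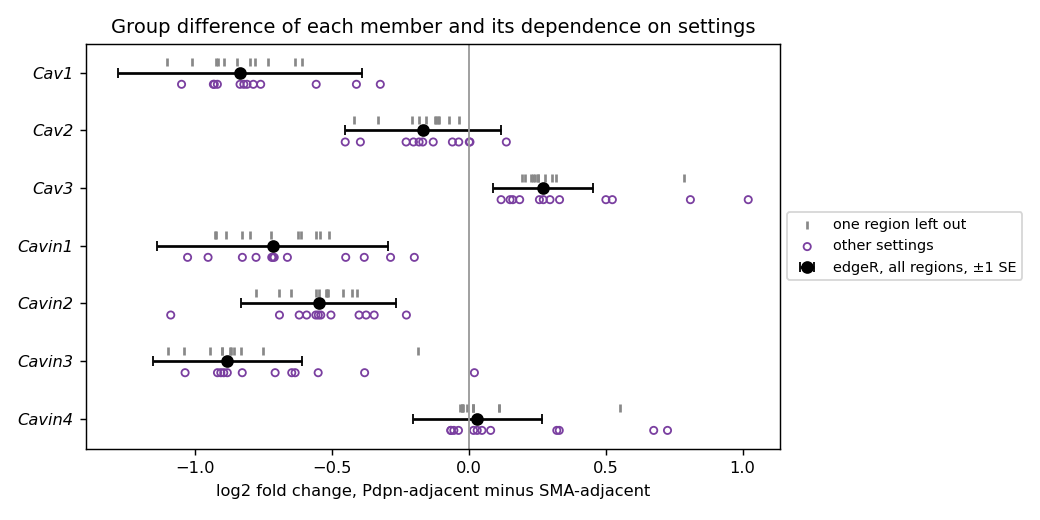
Log2 fold change of each member, Pdpn-adjacent minus SMA-adjacent (horizontal axis). Black points are the edgeR fit of all 11 regions with ±1 SE, grey ticks the fits that left out 1 region, and open circles the other settings. Cav1, Cavin1 and Cavin2 stay below 0 in every fit shown, Cav3 stays above 0, Cav2 reaches 0.14, Cavin3 reaches 0.021, and Cavin4 lies on both sides of 0.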

How the data were processed

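GeoMx probe counts of 11 labelled regions (6 Pdpn-adjacent, 5 SMA-adjacent) were used, of 12 areas that the labels count. The deposited values are raw probe counts, judged from the numbers themselves. The authors' steps from reads to counts are not given in the sources used here. Per the file headers, the probes were placed on GRCm38.p6. All 7 members matched RefSeq gene identifiers. Negative-control probes were left out of library sizes.

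Probes kept by filterByExpr of edgeR 4.0.16 in R 4.3.3 were fitted with TMM scaling and the quasi-likelihood test (two-sided, Benjamini-Hochberg over all probes, threshold 0.05). The SE is the one implied by the F statistic, with normal 95% intervals, and for Cav3, Cavin4 and Stoml3 edgeR's p is larger than it implies. Exact two-sided permutation tests of mean CPM ran over all groupings for every probe. Correlations used log2 CPM with a prior count of 2. DESeq2 1.42.0 and limma 3.58.1 served as alternatives. The code was tested on simulated data. The members and lists were chosen with earlier results of these data known. Members and the 3 genes of smallest p of each partner list were named, and for each member above 2 times background the 5 most correlated probes. The rule allowed up to 3 genes of each marker list, and these lists are given as a whole. Background subtraction, the share above background as covariate and leaving regions out of the ratios were chosen after seeing the data. Counting error alone is wide in shallow regions: a count of 1 in region 2 has an exact Poisson 95% interval of 0.950 to 209 CPM, and such intervals cover counting error only.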

Additional observations from a re-analysis of the deposited data

Results flagged for a closer look

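Among the 5 SMA-adjacent regions, region 5 stood apart for Cavin3, at 17.2 CPM, with the other 4 at 29.8 to 34.6 CPM. Region 5 had the highest total count, 3086323, and the lowest share of counts above background of its group, 21.6%. There, 202 of the 210 negative-control probes were as high as its Cavin3 count of 56 or higher. Over the 14 sets of values looked at (7 members in 2 groups), chance flags about 1 in 20.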

How the results depend on the processing

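No paired analysis was possible because no region number occurs in both groups and the labels tie no region to a mouse. No setting brought a member past the threshold except Cavin3 without SMA-adjacent region 5, and Cav1, Cavin1 and Cavin2 kept a negative log2 fold change in all 23 alternative fits, from -1.10 to -0.32, from -1.03 to -0.20 and from -1.09 to -0.23. Cav3 stayed positive, from 0.12 to 1.02. The count of members at an unadjusted p under 0.05, 1 in the main fit, depended on the setting. It was 0 with DESeq2 (387 of all probes), 5 with limma and array weights (1121) and 3 without region 5 (1857). Elsewhere it was 1 or 2. The fits without 1 region ran from -0.42 to -0.04 for Cav2, from 0.20 to 0.79 for Cav3, from -1.10 to -0.19 for Cavin3 and from -0.031 to 0.55 for Cavin4. Cav2 changed sign with the negative-probe level (0.0020) or the share above background (0.14) as covariate and without regions 2, 3 and 11 (0.0045), the setting where the log2 ratio of its mean levels was also positive (0.066). Cavin4 changed sign with the same covariates (-0.038 and -0.066) and without regions 2, 3 and 11 (-0.054) or 3 and 7 (-0.065), and Cavin3 (0.021) and Dnm2 (0.075) did so without regions 4 and 8. The members' median ran from -0.78 to -0.19 without 1 region and reached -0.060 over all 23 alternatives. The cause was not tested.

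Without 1 region the log2 difference of Cav2 over Cav1 ran from 0.34 (without region 3) to 1.30 (without region 11), and passed in the latter (adjusted p = 0.0238, exact permutation test). That pass rests in part on regions 2 and 3, at ratios of 0 and 2.81 from counts of 1 over 1 and 7 over 1. Region 11, which it left out, stood at -2. The log2 difference of Cav1 over Cavin1 ran from -0.58 to 0.22, and of Cavin2 over Cavin1 from -0.0015 to 0.40, with -0.12 without regions 2, 3 and 11.

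The edgeR call count of 2 (0 lower, 636 lower at an unadjusted p under 0.05) became 1 with upper-quartile or negative-probe scaling or without regions 2, 3 and 11. It became 14 without regions 3 and 7 and 13 without 4 and 8. With total counts 1 probe was lower. DESeq2 called 17 (16 lower), limma-voom 0 (3251 at an unadjusted p under 0.05) and limma with array weights 6 (5 lower). It was 44 (22 lower) with the negative-probe level and 37 (16 lower) with the share above background as covariate. Without 1 region it ran from 1 to 53, and from 0 to 41 for lower probes, both highest without region 5, with 13 without region 7 and 1 without region 2, 3, 9, 10 or 11. DESeq2 gave no adjusted p for Cav3, Cavin3 and Cavin4. Depth limits regions 2, 3 and 11, where members rest on counts of 1 to 7.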
